A study of Mus musculus with 6 samples.

Results

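Small leucine-rich proteoglycans (SLRPs) are secreted matrix proteins built around a short run of leucine-rich repeats. The 10 SLRP genes described here are Aspn, Bgn, Dcn, Epyc, Fmod, Kera, Lum, Ogn, Omd and Prelp. They were chosen by gene name as the family to which Aspn belongs, and they are 10 of the 43472 gene symbols counted. All 10 were in the files, and all 10 passed the filter on low counts.

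The question was how their transcripts differ between intervertebral discs (IVDs) of conditional Adgrg6 mutants and of controls. Adgrg6 encodes an adhesion G protein-coupled receptor. The mutants were Col2Cre;Adgrg6 f/f mice (3 libraries) and the controls their Cre (-) littermates (3 libraries), both on a strain given as C57B6/J and both at postnatal day 20. The mutant carries floxed Adgrg6 alleles and a Cre transgene under a type II collagen promoter, which the study describes as recombining the whole disc and also periosteum and trabecular bone of the vertebral body. The controls are called wild type in the genotype labels and Col2Cre controls in the titles, and no sex is given. Each library is a pool of thoracic and lumbar discs from 2 to 3 mice, so the spread between libraries is a spread between pools.

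SLRPs bind fibrillar collagens and set the thickness and spacing of the fibrils. Their core proteins carry chondroitin or dermatan sulfate chains, as in biglycan and decorin, or keratan sulfate chains, as in fibromodulin and lumican, while asporin has a run of aspartates and carries no such chain. Several members also bind TGF-beta and BMP ligands in the matrix, and asporin is known in disc and joint research as an inhibitor of TGF-beta in cartilage. In the disc the family is found in the annulus fibrosus, the cartilaginous endplate and the nucleus pulposus.

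Most of these genes lie in clusters, and the positions bear on how their reads were counted. In GENCODE M21 on GRCm38, Aspn (chr13:49544443-49567565), Omd (chr13:49582462-49592822) and Ogn (chr13:49608046-49624501) follow each other on the plus strand. Together with Ecm2, a further leucine-rich repeat gene, they lie wholly inside Cenpp (chr13:49464023-49652785), a centromere protein gene on the minus strand. Dcn (chr10:97479609-97518143), Lum (chr10:97565128-97572703), Kera (chr10:97606879-97613692) and Epyc (chr10:97644068-97682454) form another plus-strand run. Fmod (chr1:134037254-134048277, plus strand) and Prelp (chr1:133910304-133921414, minus strand) are neighbours on chromosome 1, and Bgn (chrX:73483602-73495933, plus strand) stands alone.

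The 250 bases before the transcription start are shown for the chromosome 13 members because these 3 neighbours are compared within libraries. They are RefSeq sequences on GRCm38.p6, read on the plus strand, from chr13:49544193-49544442 for Aspn, chr13:49582212-49582461 for Omd and chr13:49607765-49608014 for Ogn, whose RefSeq start lies 31 bases from the GENCODE start. Capitals mark the letters TATAAA, the core sequence of a TATA box, or their reverse complement TTTATA, wherever they fall. Whether any marked stretch acts as a TATA box was not tested.
Aspn: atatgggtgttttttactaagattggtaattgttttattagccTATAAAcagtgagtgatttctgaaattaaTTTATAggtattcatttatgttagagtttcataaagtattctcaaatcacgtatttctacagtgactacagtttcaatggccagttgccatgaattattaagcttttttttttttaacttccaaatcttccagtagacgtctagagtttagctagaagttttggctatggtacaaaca
Omd: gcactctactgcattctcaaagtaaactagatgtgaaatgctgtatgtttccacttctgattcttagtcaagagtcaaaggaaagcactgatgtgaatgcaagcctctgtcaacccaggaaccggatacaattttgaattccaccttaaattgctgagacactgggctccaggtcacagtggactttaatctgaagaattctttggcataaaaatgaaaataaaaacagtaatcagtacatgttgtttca
Ogn: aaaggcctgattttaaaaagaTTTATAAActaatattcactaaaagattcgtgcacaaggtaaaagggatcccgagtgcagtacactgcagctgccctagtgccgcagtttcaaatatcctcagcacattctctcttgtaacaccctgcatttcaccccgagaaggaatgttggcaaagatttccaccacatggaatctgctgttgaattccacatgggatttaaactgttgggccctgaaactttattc

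TATAAA was searched on both strands of this window in the 8 members with a promoter entry, Dcn and Lum not among them. It occurs in Aspn, beginning 207 and 178 bases before the start, and in Ogn, beginning 229 and 227 bases before it, where the matches on opposite strands overlap. These letters are not in the windows of Bgn, Epyc, Fmod, Kera, Omd and Prelp. They are in 12.4% of all 32851 promoter windows of the same length. CAGACA, a SMAD-binding sequence, and TTCNNNGAA, a STAT-binding sequence, are in 17.1% and 7.02% of windows and in none of the 8 members' windows.

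Each library held from 9061491 to 12017008 counts on genes, 40.4% to 44.2% of the reads entering the count. The labels were checked against marker lists: chondrocyte markers summed to between 79761 and 141707 CPM (counts scaled to a common library size), nucleus pulposus markers to between 2423 and 5842 CPM, and no marker list had a gene at 0 in every library. Control replicate 1 stood apart, with skeletal muscle markers summing to 4773 CPM against 84.5 to 184 CPM in the other 5 libraries. Gpr126, the symbol of Adgrg6 in these files, was at 109 ± 14.7 CPM in controls and 122 ± 16.1 CPM in mutants (SD, n = 3 each), with a log2 fold change of 0.17 ± 0.18 (SE) and an edgeR adjusted p of 0.849. That count covers the whole gene, so it does not check the deletion.

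The family spanned a wide range of levels. Scaled to 1 kb of exon (RPKM, computed from TMM-scaled CPM), the order by the mean of the 6 libraries was Fmod at 1193, Bgn at 502, Prelp at 370, Dcn at 152, Omd at 46.6, Ogn at 28.1, Lum at 21.3, Epyc at 15.9, Aspn at 15.7 and Kera at 2.29. By this measure fibromodulin, which binds type I and II collagen fibrils, was the highest member. Kera, the cornea's keratan sulfate SLRP, was the lowest, a 521-fold span. The length used was the union of all annotated exons, 3306 bases for Fmod, 6099 for Bgn and 5838 for Dcn. The order and the overlaps given here depend on that choice, and other transcript lengths were not tested. The ranges over the 6 libraries did not overlap between Fmod and Bgn, Prelp and Dcn, Dcn and Omd, or Aspn and Kera. They did overlap for the other neighbours in the order, with Bgn above Prelp in 4 of 6 libraries and Epyc above Aspn in 3 of 6. Aspn was above Epyc in all 3 mutant libraries and below it in all 3 control libraries.

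Fmod, Bgn, Prelp and Dcn made up between 95.8% and 97.5% of the family's counts in each library. The family took 0.855%, 0.991% and 0.758% of all gene counts in the control libraries and 0.793%, 1.22% and 1.08% in the mutant libraries, in this and all later lists in order of replicate number. Libraries therefore overlapped between the groups in the family's summed share. Mutant replicate 2 was the highest of the 6 libraries for 6 members and control replicate 3 the lowest for 4.

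**Figure D1:**
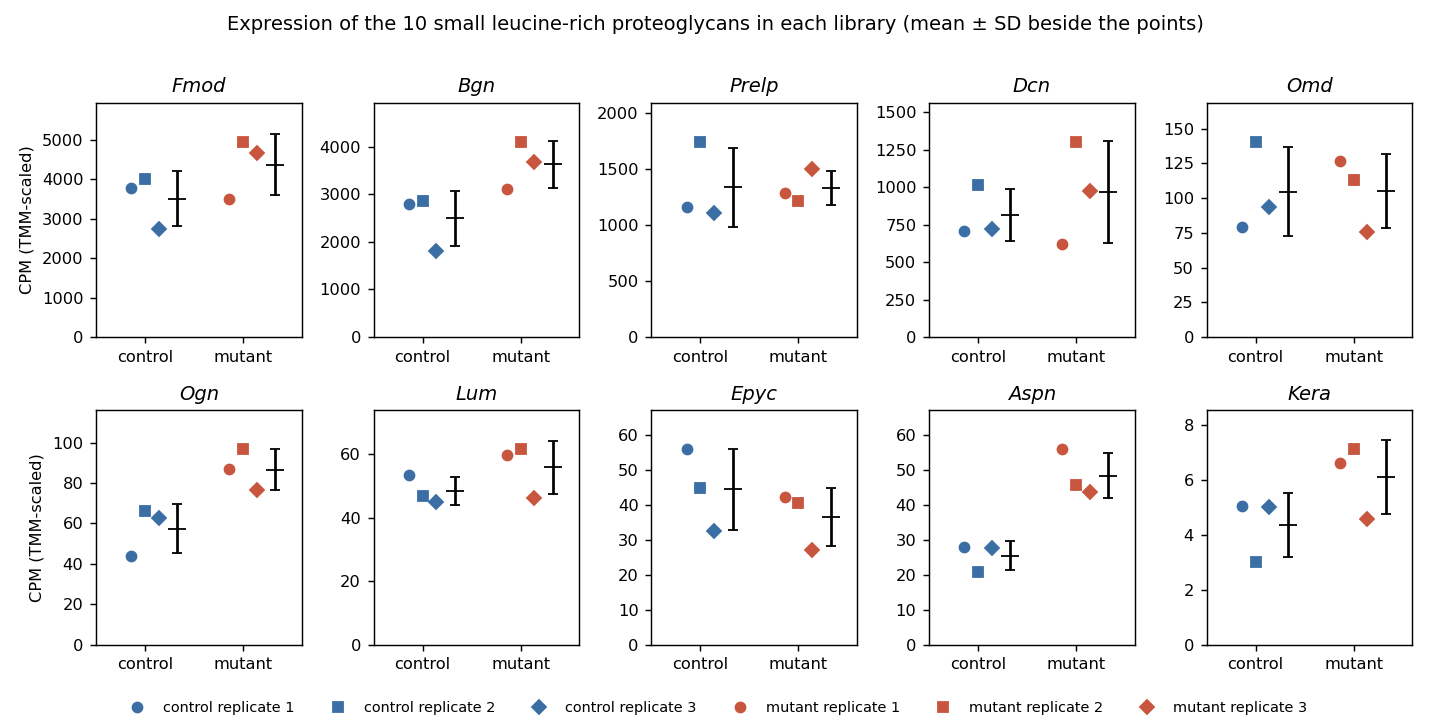
Expression of the 10 members in each library in TMM-scaled CPM (linear axes from 0, ordered by level per kb), with points for the replicates and bars for the mean ± SD of 3 libraries. The mutant points lie above all control points for Aspn, Ogn and Bgn and overlap them for the other 7 members.

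Aspn, Ogn and Bgn were the members whose mutant libraries all lay above all control libraries. These were 3 of 10 members, against 5.45% of all 16152 genes tested, and 0 of 10 had all mutant libraries below the controls, against 5.96%. In edgeR's quasi-likelihood test, 2 of 10 members, Aspn and Ogn, were higher at an unadjusted p under 0.05, against 2.89% of all genes, and 0 of 10 were lower, against 4.32% (7.21% of all genes in either direction). DESeq2 put 3 of 10 members past an unadjusted p of 0.05, Bgn being the third, against 7.61% of all genes, and limma-voom 2 of 10, against 9.14%. After Benjamini-Hochberg adjustment over all genes no member passed, and only 1 gene of all did (0.00619%), so the calls below rest on the unadjusted p. The log2 fold change was above 0 for 8 of 10 members, against 48.4% of all genes, and for 7 to 9 of 10 under other scalings and tools, since Omd and Prelp sat near 0. The median log2 fold change was 0.28 over the members and -0.01 over all genes.

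**Figure D2:**
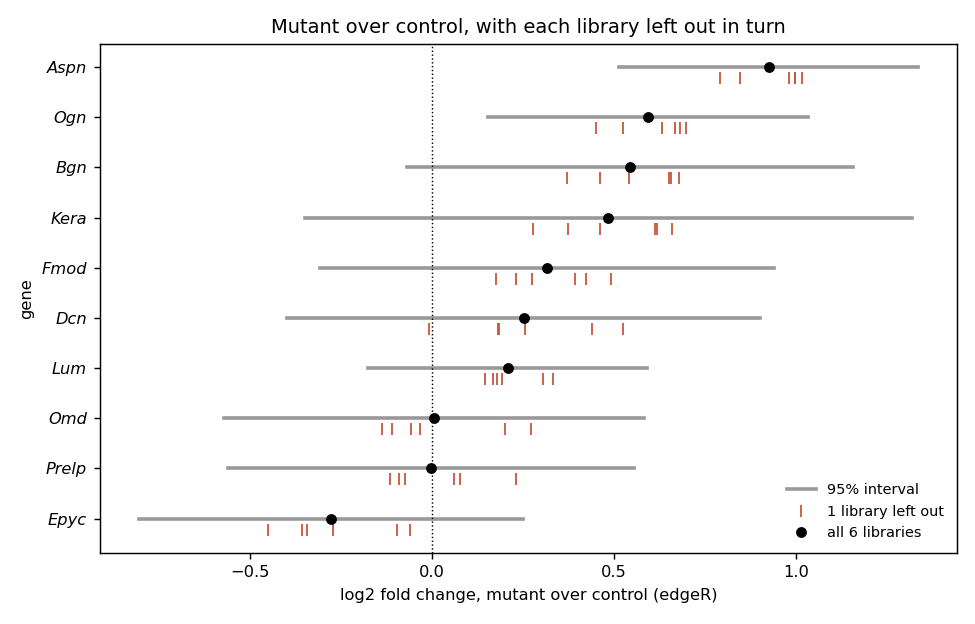
Log2 fold change of mutant over control for each member from edgeR (black points), with its 95% interval (grey bars) and the values with 1 library left out in turn (red ticks). The interval lies above 0 for Aspn (0.51 to 1.34) and Ogn (0.15 to 1.03) and includes 0 for the other 8 members.

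Aspn, which encodes asporin, was at 28.0, 20.8 and 27.8 CPM in controls and at 56.0, 45.7 and 43.8 CPM in mutants. Every mutant library was above every control library, and the lowest mutant value exceeded the highest control value by more than the SD of either group. The means were 25.5 ± 4.12 CPM and 48.5 ± 6.57 CPM (SD, n = 3 each), which is 1.90-fold with a 95% interval of 1.43 to 2.52. The log2 fold change was 0.92 ± 0.19 (SE), with an edgeR unadjusted p of 0.000524 and an adjusted p of 0.529, and Aspn ranked 16 of 16152 genes by p. With any 1 library left out it stayed between 0.79 and 1.02, with edgeR unadjusted p between 0.000731 and 0.00312. The adjusted p of Aspn was 0.0187 in DESeq2 and 0.00656 in edgeR without the filter on low counts.

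The library with the most Aspn, mutant replicate 1, also had the highest sums of neutrophil markers (153 CPM against 16.2 to 59.3) and macrophage markers (108 CPM against 51.7 to 76.0). Without that library the log2 fold change of Aspn was 0.84, with an edgeR unadjusted p of 0.00218.

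Ogn, encoding osteoglycin (mimecan), an SLRP found in bone and fibrous tissue, was at 43.7, 66.1 and 62.5 CPM in controls and at 86.7, 96.6 and 76.5 CPM in mutants. The groups did not overlap, with control replicate 1 the lowest library. The difference was 1.51-fold, a log2 fold change of 0.59 ± 0.20 (SE), with an edgeR unadjusted p of 0.0130 and an adjusted p of 0.676. Without control replicate 1, the library with muscle transcripts, it was 0.45 with an edgeR unadjusted p of 0.0398, and over all libraries left out in turn the p ranged from 0.0142 to 0.0398. Scaled by library totals alone, the edgeR unadjusted p of Ogn was 0.0568.

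Omd, encoding osteomodulin, a keratan sulfate SLRP of mineralized tissue, lies between Aspn and Ogn. It was at 79.3, 141 and 93.9 CPM in controls and at 127, 113 and 75.3 CPM in mutants. Both the highest and the lowest library lay outside the range of the other group. The log2 fold change was 0.01 ± 0.26 (SE) with a 95% interval of -0.57 to 0.58, an edgeR adjusted p of 0.997, and a sign that turned under library totals alone, limma-voom and 4 of 6 libraries left out.

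The chromosome 13 members can also be compared within a library, where the scaling between libraries has no effect. The log2 ratio of Aspn to Omd counts was -1.50, -2.76 and -1.76 in controls and -1.18, -1.31 and -0.78 in mutants. The groups did not overlap, with means of -2.01 ± 0.67 and -1.09 ± 0.27 (SD, n = 3 each), a difference of 0.92 that was 0.54 without control replicate 2, the lowest library. The two-sided exact permutation p was 0.1, the smallest that 3 against 3 libraries can give. The log2 ratio of Ogn to Omd was -0.86, -1.09 and -0.59 in controls and -0.55, -0.23 and 0.02 in mutants, again without overlap, with a difference of 0.60 and the same exact p of 0.1. The log2 ratio of Aspn to Ogn overlapped between the groups, with a difference of 0.32 and an exact permutation p of 0.4, and it rested on single controls, the difference being 0.07 without control replicate 2 and 0.58, with no overlap, without control replicate 1. Aspn over Ecm2 and Aspn over Cenpp also overlapped, with differences of 0.69 and 0.75 and an exact permutation p of 0.2 each. Without control replicate 2 these were 0.35 and 0.49, while the groups did not overlap without control replicate 1 (1.01 and 0.98) or without mutant replicate 2 (0.91 and 0.93).

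**Figure D3:**
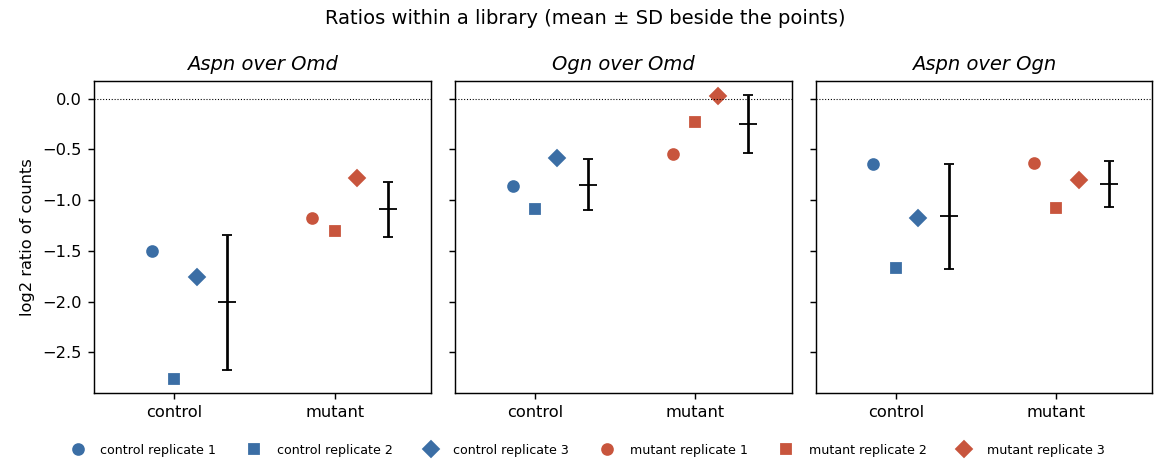
Log2 ratio of counts within each library for pairs of the chromosome 13 members, with the mean ± SD of 3 libraries beside the points. The mutant points lie above the control points for Aspn over Omd and for Ogn over Omd and overlap them for Aspn over Ogn.

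Cenpp had more counts than the sum of the 4 genes inside it. Over the 6 libraries it had 25914 counts, against 2268 for Aspn, 6414 for Omd, 4469 for Ogn and 9317 for Ecm2. The ratio of Cenpp to that sum was 1.27, 1.14 and 1.22 in controls and 1.07, 1.16 and 1.07 in mutants, a narrow range in which the groups overlapped. Of the 2354 exon bases of Aspn, 7 lie under an exon of Cenpp, and none of the exon bases of Omd or Ogn do. All exon bases of the 3 members lie within the span of Cenpp, and 1420 of the 2564 exon bases of Cenpp lie within the span of Aspn. The strand setting is not stated, nor whether reads were counted over exons or over whole gene spans. Chad, another SLRP gene, lies inside Acsf2 and shares no exon base with it. Acsf2 nevertheless had 1.03 to 1.06 times the counts of Chad in every library. Counts of Cenpp may thus include reads of the genes inside it, and counts of Aspn may include reads of Cenpp exons within its span. Aspn over Cenpp may therefore not compare separate counts. The same limit holds for the level and fold change of Aspn and for its other ratios. How far the reads were kept apart was not tested. Between genotypes, the log2 fold change was 0.18 ± 0.23 (SE) for Cenpp and 0.22 ± 0.26 (SE) for Ecm2, with edgeR adjusted p of 0.873 and 0.857. When the 5 genes were summed into 1, the sum had a log2 fold change of 0.24 and an edgeR adjusted p of 0.842.

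**Figure D4:**
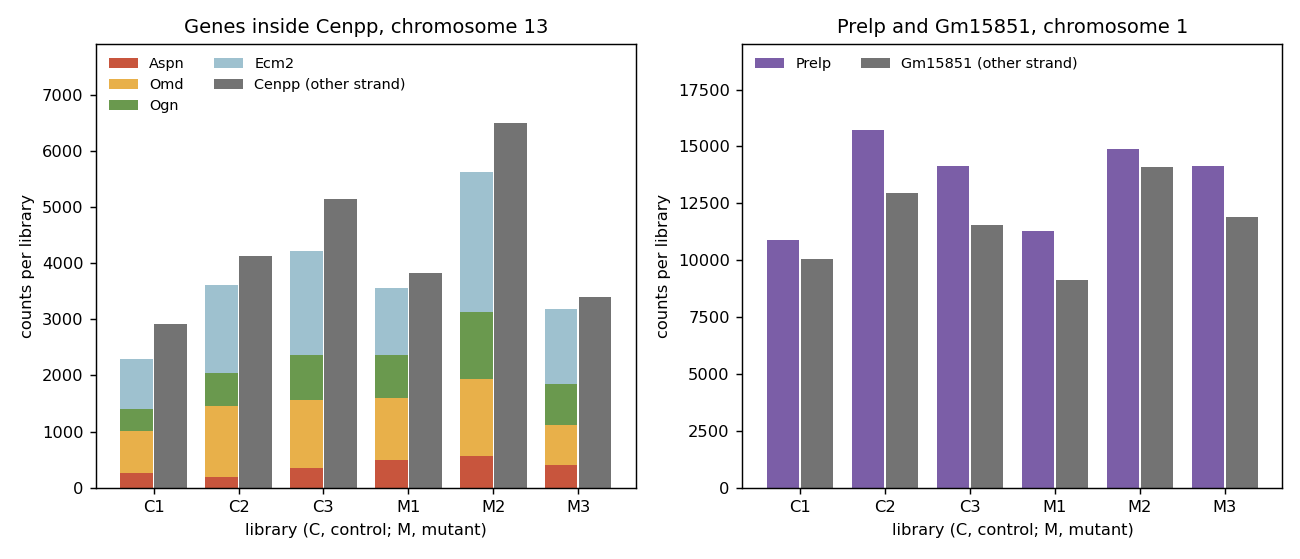
Counts per library on the 4 genes inside Cenpp, stacked, beside those on Cenpp (left), and on Prelp beside those on Gm15851, the gene on its other strand (right), with C for control and M for mutant. Cenpp is above the stack in every library, and Gm15851 is at 0.809 to 0.948 times Prelp.

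Bgn, encoding biglycan, was at 2791, 2872 and 1818 CPM in controls and at 3117, 4106 and 3680 CPM in mutants. The groups did not overlap, though control replicate 3 lay far below the other controls. Its log2 fold change was 0.54 ± 0.28 (SE), with a 95% interval of -0.07 to 1.16, and its edgeR unadjusted p of 0.0764 (adjusted p 0.710) misses the threshold. Without control replicate 3 the log2 fold change was 0.37, and without mutant replicate 1 it was 0.68 and passed the unadjusted threshold. Bgn passed that threshold in DESeq2 with all 6 libraries, where its adjusted p was 0.381.

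Dcn, encoding decorin, the closest relative of biglycan, was at 707, 1012 and 718 CPM in controls and at 622, 1303 and 975 CPM in mutants. Mutant libraries held both the lowest and the highest value. The log2 fold change was 0.25 ± 0.29 (SE), with a 95% interval of -0.40 to 0.90 and an edgeR adjusted p of 0.857, and was -0.01 without mutant replicate 2, 0.53 without mutant replicate 1, 0.44 without control replicate 2, 0.16 under library totals alone and 0.06 in limma-voom. The log2 ratio of Bgn to Dcn overlapped between the groups, with a difference of 0.36 and an exact permutation p of 0.3.

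Fmod was at 3791, 4019 and 2731 CPM in controls and at 3493, 4952 and 4679 CPM in mutants. Control replicate 3 was again the lowest library and mutant replicate 2 the highest. For Fmod the log2 fold change was 0.32 ± 0.28 (SE), with a 95% interval of -0.31 to 0.94 and an edgeR adjusted p of 0.821, and it was 0.17 without control replicate 3 and 0.49 without mutant replicate 1. Over the 6 libraries Fmod varied most like Bgn: after each gene was centred on its own mean, their log2 CPM differed by a root mean square of 0.14, the smallest of any pair of members.

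Lum, encoding lumican, the keratan sulfate SLRP that competes with fibromodulin for a site on collagen, was at 53.5, 46.7 and 44.9 CPM in controls and at 59.9, 61.4 and 46.2 CPM in mutants. The third mutant library fell within the control range. Its log2 fold change was 0.21 ± 0.17 (SE), with a 95% interval of -0.18 to 0.59 and an edgeR adjusted p of 0.810, and it was 0.33 without mutant replicate 3 and 0.10 under library totals alone. The log2 ratio of Fmod to Lum was 6.15, 6.43 and 5.92 in controls and 5.87, 6.33 and 6.66 in mutants. Mutant libraries held both the lowest and the highest ratio. The difference was 0.12, with an exact permutation p of 0.8.

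Kera, encoding keratocan, had between 27 and 87 counts per library, the fewest of the family. Its levels were 5.03, 3.00 and 5.0 CPM in controls and 6.60, 7.10 and 4.57 CPM in mutants, where mutant replicate 3 overlapped the controls. The lowest library's 27 counts have an exact 95% Poisson interval of 17.8 to 39.3, which covers counting error only. At 0.48 ± 0.37 (SE), the log2 fold change of Kera had a 95% interval of -0.35 to 1.32 and an edgeR adjusted p of 0.802, and it was 0.28 without control replicate 2.

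Prelp, encoding a heparin-binding SLRP that links basement membranes to collagen, was at 1163, 1744 and 1104 CPM in controls and at 1286, 1214 and 1504 CPM in mutants. All 3 mutant values lay within the control range. Its log2 fold change was -0.0028 ± 0.25 (SE), with a 95% interval of -0.56 to 0.55, an edgeR adjusted p of 0.998 and a sign that turned with RLE size factors. Of its 3615 exon bases Prelp shares 350 with the exons and 2856 with the whole span of Gm15851, an antisense gene with 69651 counts against 81029 for Prelp. Reads called ambiguous were 0.846% to 1.05% of a library and were left out. How the remaining reads on the shared bases were divided between Prelp and Gm15851 is not known and was not tested. Summed, the pair had a log2 fold change of 0.0065.

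Epyc, encoding epiphycan, the SLRP of growth plate cartilage, was the member with the lowest log2 fold change. It was at 56.0, 45.0 and 32.7 CPM in controls and at 42.3, 40.6 and 27.1 CPM in mutants, and the groups overlapped. The log2 fold change was -0.28 ± 0.24 (SE), with a 95% interval of -0.81 to 0.25 and an edgeR adjusted p of 0.814. Without control replicate 1, its highest library, the log2 fold change was -0.06, without mutant replicate 3 it was -0.10, and without control replicate 3 it was -0.45. Of the 2561 exon bases of Epyc, 1041 lie under exons of Gm10754, a noncoding gene on the other strand. Gm10754 had 12 counts in all, against 2470 for Epyc. Epyc was the member least like Aspn across libraries, with a root mean square difference of 0.68.

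By the same measure over the 6 libraries, the non-member genes most like Aspn were Fcrls at 0.09, Cgnl1 at 0.09 and Plekhb2 at 0.11. Cgnl1 was at 41.8 CPM in controls and 77.5 CPM in mutants, and Plekhb2 at 8.90 and 17.6 CPM. Fcrls was at 1.94 and 3.42 CPM, so its counts were few. Of the other members Kera came nearest to Aspn, at 0.29, and Ogn followed at 0.36. These distances describe 6 libraries and carry no test.

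The remaining SLRP genes of the family were 9, of which 7 were tested and 0 passed an unadjusted p under 0.05 in edgeR. Their log2 fold changes were -0.29 for Chad (chondroadherin), -0.21 for Chadl, -0.68 for Nyx, 0.06 for Tsku, 0.30 for Podn, 0.07 for Podnl1 and 0.22 for Ecm2, with a median of 0.06. Optc and Nepn, with 46 and 14 counts in all, were below the filter. Chad, at 4918 ± 2442 CPM in controls and 4012 ± 397 CPM in mutants, lies inside a gene on the other strand, Acsf2, with 281471 counts against 269961 for Chad.

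Lists of related genes were read beside the 7.21% of all genes past an unadjusted p of 0.05 in either direction, and again without control replicate 1, where 14.1% of 17164 genes passed. Among the genes the family works with, the collagens that SLRPs bind had the most genes past the threshold. Of 14, 6 were higher and 0 lower at an unadjusted p under 0.05 in edgeR, the median log2 fold change being 0.38, and without control replicate 1 again 6 were higher and 0 lower. By log2 fold change (± SE) these were Col14a1, a collagen of fibril surfaces, at 1.16 ± 0.24, Col3a1 at 1.08 ± 0.28, Col1a1 at 1.05 ± 0.46, Col5a2 at 0.87 ± 0.24, Col5a1 at 0.80 ± 0.24 and Col5a3 at 0.46 ± 0.21, the last 3 encoding type V chains that start fibrils. Col14a1 had the lowest edgeR adjusted p of the list, 0.534, and no gene named from any list had one under 0.05.

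The enzymes that process and decorate SLRPs were read in 3 lists. Of 12 proteases and their enhancers tested, 2 were higher and 1 lower (25.0%) at an unadjusted p under 0.05 in edgeR. Mmp3, a matrix metalloproteinase, had a log2 fold change of 1.22 ± 0.32 (SE) and Pcolce, an enhancer of the procollagen protease BMP1, one of 0.80 ± 0.21, while its paralog Pcolce2 had -0.46 ± 0.19. Of 24 genes of chondroitin and dermatan sulfate synthesis, 1 was higher, the sulfotransferase Chst3, at a log2 fold change of 0.66 ± 0.28 (SE), and 1 lower, the sulfate donor transporter Slc35b2, at -0.40 ± 0.16, a share of 8.33% that is close to that of all genes. Without control replicate 1 the counts were 3 higher and 0 lower for the proteases and 4 higher and 0 lower for this list. Of 6 genes of keratan sulfate synthesis 1 (16.7%) was higher, the sulfotransferase Chst1, at 0.66 ± 0.21.

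Of 19 genes for TGF-beta and BMP ligands, receptors and binding proteins, 0 were higher and 2 lower in edgeR. These were Bmp7, with a log2 fold change of -0.73 ± 0.27 (SE), and Tgfb2, with -0.51 ± 0.19. Their share, 10.5%, is close to that of all genes, and without control replicate 1 there were 3 higher and 1 lower. Tgfb1, a ligand that asporin binds, was at 84.5 ± 18.0 CPM in controls and 78.3 ± 10.9 CPM in mutants, with a log2 fold change of -0.11 and an edgeR adjusted p of 0.923. Of 12 receptors that bind SLRPs, among them Tlr2 and Tlr4, which respond to free biglycan, 0 passed in either direction and the median log2 fold change was 0.03, while without control replicate 1 there were 2 higher.

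**Figure D5:**
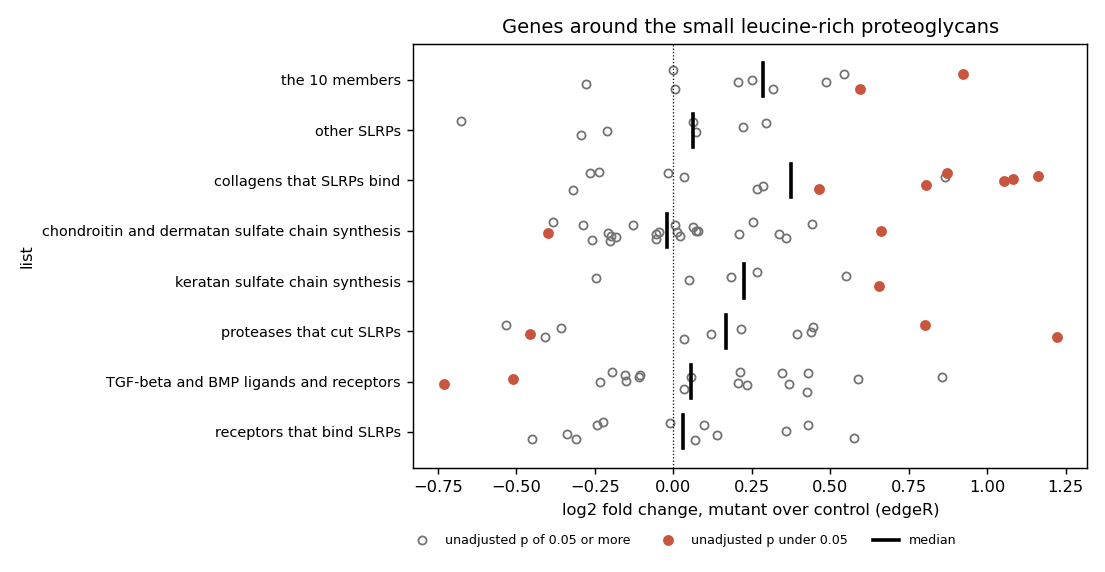
Log2 fold change of mutant over control from edgeR for the 10 members and for each tested gene of 7 lists around them, 1 point a gene, with filled red points for an unadjusted p under 0.05 and a black bar for the list's median. The collagens have 6 filled points, all to the right of 0, and the receptors have none.

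Marker lists of cells in and around the disc were read beside Aspn and Ogn, and the summed level of 1 of 11 lists, fibroblasts, did not overlap between the groups. Of 10 tendon and outer annulus markers 6 were higher and 0 lower at an unadjusted p under 0.05 in edgeR, namely Egr1, Postn, Thbs4, Col1a1, Tnmd and Tnc, with log2 fold changes of 1.94, 1.17, 1.09, 1.05, 0.96 and 0.96. That list summed to between 14516 and 29346 CPM in controls and between 25014 and 42476 CPM in mutants, which overlap. Of 10 fibroblast markers 2 were higher, Col3a1 and Dpt, and the list summed to between 1849 and 2348 CPM in controls and between 3080 and 5099 CPM in mutants. Col3a1 made up 84.8% to 91.4% of that sum, and the other 9 markers summed to between 281 and 305 CPM in controls and between 328 and 466 CPM in mutants. Col1a1, Col1a2 and Col3a1 stand in these marker lists and in the collagen list.

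Of 11 osteoblast and bone markers 2 were higher, Bglap and Bglap2, at log2 fold changes of 1.64 and 1.31, and 2 lower, Runx2 and Phex, at -0.55 and -0.81. Of 8 prehypertrophic and hypertrophic markers 1 was higher, Vegfa, at 0.59, and 4 lower, Ihh, Panx3, Pth1r and Mef2c, at -1.49, -1.25, -0.71 and -0.66. Of 12 chondrocyte markers 0 were higher and 3 lower, namely Col9a2, Col9a3 and Matn3, with log2 fold changes of -0.64, -0.73 and -0.78. Of 8 neutrophil markers 2 were higher, Mpo and Prtn3, and of 7 macrophage markers 1, Cd68. Of 7 red blood cell markers 1 was higher, Slc4a1, while 0 of 6 endothelial and 0 of 8 nucleus pulposus markers passed in either direction. Of 10 skeletal muscle markers 9 were lower with control replicate 1 in the fit, those with the smallest p being Myh2, Myh4, Atp2a1, Actn3, Myh1 and Mylpf. Without that library 0 were lower and 4 higher, the summed level being 84.5 and 118 CPM in the remaining controls and 169 to 184 CPM in mutants. Leaving it out also gave 7 of 10 tendon and outer annulus markers higher and 0 lower. In that fit 6 of 7 red blood cell, 4 of 6 endothelial and 3 fibroblast markers were higher. Of osteoblast markers 3 were higher and 1 lower, of prehypertrophic and hypertrophic markers 1 was higher and 2 lower, and 0 chondrocyte markers were lower. Whether these marker values have a part in the values of Aspn and Ogn was not tested, and in bulk discs more cells of a type and more RNA per cell cannot be told apart.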

How the data were processed

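RNA-seq of poly(A) RNA from P20 discs gave 6 libraries, prepared with the NEBNext Ultra RNA kit. The authors deposited raw counts per gene symbol, 1 file per library. Their processing notes name STAR 2.5.3a, HTSeq and DESeq2 with mm10 and GRCm38. The study's methods name Cutadapt, FastQC and HISAT2 with GRCm38.88, then StringTie and Ballgown for expression levels and differences. Which of these made the counts is not given in the sources used here. Unaligned reads (12.0% to 18.9%), reads without a feature (39.4% to 43.3%) and ambiguous reads (0.846% to 1.05%) were left out of library sizes. A table of the authors' own comparison, with fold changes and p-values, was not used.

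Mutant and control were compared on all 6 libraries with edgeR 4.0.16 in R 4.3.3: TMM scaling, filterByExpr at a count minimum of 10, the quasi-likelihood test, and Benjamini-Hochberg adjustment over 16152 genes. An SE is the log2 fold change divided by the root of F, and a 95% interval uses the test's degrees of freedom. RPKM divides scaled CPM by the union of GENCODE M21 exons. Ratios were compared by two-sided exact permutation tests. Likeness is the root mean square difference of centred log2 CPM with a prior count of 1. The code was tested on simulated data.

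All 10 members are named, with genes overlapping them, the 3 non-members most like Aspn, the other SLRPs and, of each of 18 lists, up to 6 genes with the smallest p under 0.05. Tgfb1, Tlr2, Tlr4, Col1a2, Scx, Mkx and Comp are named outside this rule, after their values were seen. The members and lists were chosen with earlier results of these data known, and Aspn was singled out from these libraries, so its p is not independent support. Alternatives were RLE size factors, library totals alone, no low-count filter, a replicate block, DESeq2 1.42.0 and limma-voom (limma 3.58.1) with quality weights. Each library was also left out in turn, and the chromosome 13 genes were summed. Added after seeing the data were Prelp and Gm15851 summed, the lists without control replicate 1 and the fibroblast markers without Col3a1. Also added then were the log2 ratios between chromosome 13 genes, and no other ratios, with each library left out. No library pair agreed within sampling noise.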

Additional observations from a re-analysis of the deposited data

How the results depend on the processing

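Of 124 member fold changes under alternatives, 104 kept their direction and side of the unadjusted threshold, 3 lost the call, 2 gained it and 15 changed sign. Of the 3 losses, 1 was Ogn under library totals alone (0.47) and 2 were the sum of the 5 chromosome 13 genes (0.24), in which Cenpp has more counts than the other 4 together and which therefore says little of Aspn or Ogn. Bgn gained it in DESeq2 and without mutant replicate 1. Sign changes were those of Dcn, Omd and Prelp. Dcn was between -0.0098 (without mutant replicate 2) and 0.53 with 1 library left out. Omd was -0.11 under library totals alone, -0.25 in limma-voom, and between -0.14 and 0.27 with 1 library left out. Prelp was 0.00097 with RLE, 0.016 without the filter, 0.00099 in DESeq2, 0.0065 summed with Gm15851, and between -0.12 and 0.23 with 1 library left out.

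Members higher at an unadjusted p under 0.05 were 2, 1 under library totals alone, and 3 in DESeq2 and without mutant replicate 1. Members with an adjusted p under 0.05 were 0, and 1, Aspn, without the filter and in DESeq2. All genes with an unadjusted p under 0.05 were 1164, 2276 without the filter, and between 618 (without control replicate 3) and 2427 (without control replicate 1) with 1 library left out. Genes with an adjusted p under 0.05 were 1, 245 without the filter, 58 in DESeq2, 0 in limma-voom, and between 0 and 31 (without control replicate 1) with 1 library left out. The causes were not tested. Library totals alone moved the median log2 fold change of all genes from -0.01 to -0.13 and the share of unadjusted calls that were higher from 40.1% to 19.1%.

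The deviations of libraries with the same replicate number had correlations of 0.175, -0.111 and 0.106, within the range of -0.268 to 0.18 for different numbers. With 3 libraries a group this cannot decide whether the numbers mark pairs, and the main comparison did not pair them. With the replicate number as a block, 0 genes had an adjusted p under 0.05, Prelp was 0.024 and Aspn 0.93. At 27 to 87 counts per library, depth limits Kera most.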
